A study of Mus musculus with 2 samples.

Results

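Of the 22 tRNA genes of mouse mitochondrial DNA, mt-Ty and mt-Ts2 gave 330 of the 725090 distinct tags without an undetermined base, and these 330 tags held 2.62% of all reads from young brain and 2.99% of all reads from old brain. A tag is a distinct read sequence with its read count. A tag counted as a member when it matched perfectly, on the sense strand, inside either gene of the NCBIM37 (mm9) sequence as annotated by GENCODE M1. mt-Ty had 177 tags and mt-Ts2 had 153. The 2 genes were chosen by their read numbers in these libraries, in which they lead the mitochondrial tRNA genes, so that their levels and ratios are given as descriptions.

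Small RNAs were sequenced from whole brains of male C57BL/6J mice in 2 libraries, one for young mice of 5 months and one for old mice of 24 to 25 months. Each library combined the cDNA of 2 mice, no treatment or mutation was stated for either age, and the labels give no library of a single mouse. The young library held 4523267 reads and the old library 6658732 reads. With 1 library per age no test of age was possible, and every interval below covers counting error only, since reads amplified by PCR without molecular identifiers are not independent molecules. RNA of 18 to 30 nucleotides was cut from the gel and the tags are 17 to 26 nucleotides long, so that a longer fragment of a tRNA could not appear.

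Mitochondrial DNA is transcribed into long precursors in which tRNAs stand between other genes. RNase P cuts the precursor at the 5′ end of each tRNA and ELAC2 cuts at its 3′ end, after which the nucleotidyltransferase TRNT1 adds CCA to the 3′ end. The anticodon, which reads the codon in the mRNA, lies in the middle of a loop of 7 bases. mt-Ty encodes the tRNA for tyrosine. mt-Ts2 encodes the tRNA for serine that reads AGY codons, an unusual tRNA that lacks the D arm near its 5′ end and is therefore short.

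mt-Ty (ENSMUSG00000064350.1) lies on the minus strand of MT at positions 5260 to 5326 and is 67 bases long, with its anticodon at bases 29 to 31 counted from the 5′ end of the gene. mt-Ts2 (ENSMUSG00000064365.1) lies on the plus strand of MT at positions 11613 to 11671 and is 59 bases long, with its anticodon at bases 20 to 22. Each gene is a single exon that is the tRNA itself. The last base of mt-Ts2 is also the first base of mt-Tl2, the next tRNA gene. The 5 tags of each gene with the most reads are shown first, with 2 others, named by their first and last base in the gene. Capitals mark anticodon bases.
mt-Ty 12-31: tgagtaagcattagactGTA
mt-Ty 13-31: gagtaagcattagactGTA
mt-Ty 14-31: agtaagcattagactGTA
mt-Ty 12-32: tgagtaagcattagactGTAa
mt-Ty 13-32: gagtaagcattagactGTAa
mt-Ty 6-31: aatggctgagtaagcattagactGTA
mt-Ts2 1-19: aagaaagattgcaagaact
mt-Ts2 1-21: aagaaagattgcaagaactGC
mt-Ts2 1-22: aagaaagattgcaagaactGCT
mt-Ts2 1-23: aagaaagattgcaagaactGCTa
mt-Ts2 1-25: aagaaagattgcaagaactGCTaat
mt-Ts2 3-22: gaaagattgcaagaactGCT
The main mt-Ty tags start inside the tRNA and stop with the last anticodon base or 1 base beyond it. The main mt-Ts2 tags start with the first base of the tRNA and stop at several places around the anticodon. The mt-Ty tag 6-31 is shown because its old to young ratio was the lowest among mt-Ty tags with at least 100 reads, and mt-Ts2 3-22 as the leading tag of the start at base 3.

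mt-Ty gave 95072 reads in the young library and 166064 in the old library, that is 21018 and 24939 reads per 1000000 reads of the library (RPM). The log2 ratio of old to young, scaled by all reads, was 0.25 (95% exact interval 0.24 to 0.26). mt-Ts2 gave 23418 and 32973 reads, or 5177 and 4952 RPM, with a log2 ratio of -0.06 (-0.09 to -0.04). There were 4.06 mt-Ty reads for each mt-Ts2 read in the young library and 5.04 in the old library, a comparison that needs no scaling between libraries (log2 ratio 0.31, 0.28 to 0.34). Together they made up 92.0% and 92.8% of all reads of mitochondrial tRNA genes. They ranked first and second of the 22 genes in both libraries, and the next gene, mt-Tv, had 1939 and 3479 reads.

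The log2 ratios of the other 20 mitochondrial tRNA genes ran from -0.89 to 0.86 with a median of 0.12, and 14 of them lay above 0. Among all 22 genes mt-Ty ranked 8 and mt-Ts2 ranked 18 from the highest ratio. Both ratios thus lay inside the range of the other genes.

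Perfect matches do not place a read in mitochondrial DNA alone, since mammalian nuclear genomes hold copies of it. The whole mt-Ty gene had 1 perfect nuclear match, and all 177 mt-Ty tags matched the nuclear genome somewhere. The whole mt-Ts2 gene had 0 perfect nuclear matches, but 99 of its 153 tags, with 99.7% of its reads in both libraries, matched a nuclear sequence. From the tags alone a mitochondrial and a nuclear origin cannot be told apart. The 54 mt-Ts2 tags without a nuclear match had 64 young and 101 old reads, with a log2 ratio of 0.10 (-0.37 to 0.58).

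mt-Ty fragments covered a narrow inner stretch of the tRNA. Starts at bases 12, 13 and 14 held 97.2% of mt-Ty reads in the young library and 98.2% in the old library. The start at base 12 was the main one, with 65.2% of young reads (95% Wilson interval 64.9 to 65.5%) and 56.3% of old reads (56.1 to 56.5%). The difference of old minus young was -8.93 percentage points (Newcombe interval -9.31 to -8.54). The shares of the next starts were higher in the old library. Base 13 started 24.1% of young and 30.2% of old reads, a difference of 6.06 points (5.71 to 6.41), and base 14 started 7.83% and 11.7%, a difference of 3.92 points (3.69 to 4.15). In reads scaled by library, the log2 ratio was 0.03 at base 12, 0.57 at base 13 and 0.83 at base 14. The ratio was thus higher for each later base of these 3 starts.

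**Figure D1:**
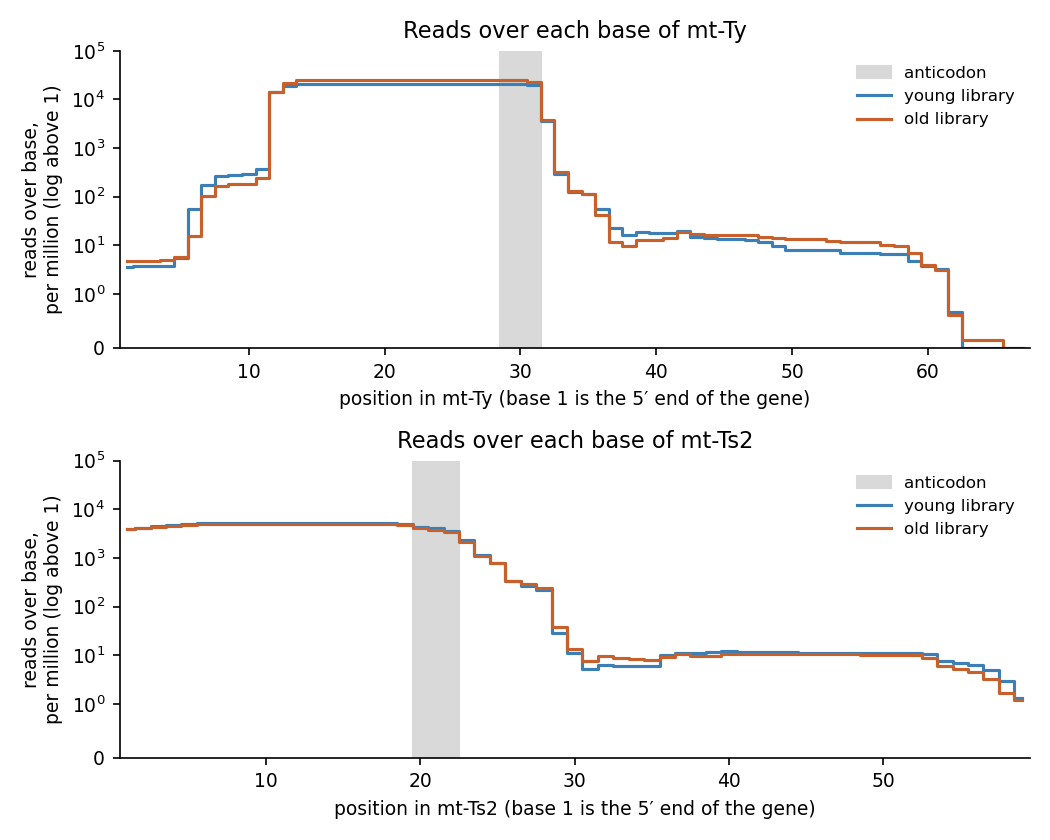
Reads over each base of mt-Ty (top) and mt-Ts2 (bottom), in reads per 1000000 reads of the library (RPM) on an axis that is logarithmic above 1, against the position in the tRNA; blue is the young library, orange the old library, and the grey band the anticodon. mt-Ty reads fill bases 12 to 31 and mt-Ts2 reads run from base 1 into and past the anticodon. Few reads lie in the 3′ part of either tRNA, and fragments over 26 nucleotides could not appear.

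The 5′ end of the mature tRNA was nearly absent from the mt-Ty tags. Only 16 young and 32 old reads started at base 1. A tag from base 1 to base 31, the main end of mt-Ty, is longer than the longest tag in the files. With that end, only starts at base 6 or later could be seen. How many mt-Ty fragments from base 1 ended at base 31 was not measured. Starts at bases 6 to 11 held 1655 young and 1597 old reads, with a log2 ratio of -0.61 (-0.71 to -0.51). Within them, the start at base 6 had the lowest ratio, with 49.1 and 9.61 RPM (222 and 64 reads, log2 ratio -2.35). Most of that difference came from 1 tag, mt-Ty 6-31, which had 194 young and 29 old reads (log2 ratio -3.30, -3.92 to -2.73).

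mt-Ty reads stopped at the anticodon in both libraries. The third anticodon base, base 31, was the last base of 75.6% of young reads (75.3 to 75.8%) and 76.8% of old reads (76.6 to 77.0%). Base 32 followed with 16.1% and 14.1%, and base 30 with 6.63% and 7.49%. These 3 ends held 98.3% of young and 98.4% of old reads, and the anticodon loop, bases 27 to 33, held the ends of 99.3% and 99.4%. Base 31 was the main end for each of the 3 starts. It ended 76.9% of young reads that started at base 12, 71.7% at base 13 and 80.9% at base 14, and in the old library 77.5%, 74.6% and 81.1%. The shift between libraries was therefore larger at the 5′ side of these fragments than at the 3′ side.

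No mt-Ty tag ended at the last base of the gene, so that 0 of 95072 young and 0 of 166064 old reads came from the extreme 3′ end, which allows shares of up to 0.00316% and 0.00181%. No tag crossed the start or the end of the mt-Ty gene into its neighbours. Antisense mt-Ty tags had 1 young and 5 old reads.

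The most abundant mt-Ty tag, 12-31, had 47693 young and 72455 old reads, or 10544 and 10881 RPM (log2 ratio 0.05, 0.03 to 0.06). The tag 1 base shorter at its 5′ end, 13-31, had 16455 and 37385 reads (log2 ratio 0.63, 0.60 to 0.65). The tag 14-31 had 6022 and 15815 reads (log2 ratio 0.84, 0.79 to 0.88). The ratio thus differed among tags that share their last 18 bases. Tags that ended 1 base later were lower relative to these. The tag 12-32 had 9269 and 12159 reads, with a log2 ratio of -0.17 (-0.21 to -0.13), and 13-32 had 4370 and 8068 reads, with a log2 ratio of 0.33 (0.27 to 0.38). The highest ratio among mt-Ty tags with at least 100 reads was that of 14-30, with 241 young and 753 old reads (log2 ratio 1.09, 0.87 to 1.30).

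**Figure D2:**
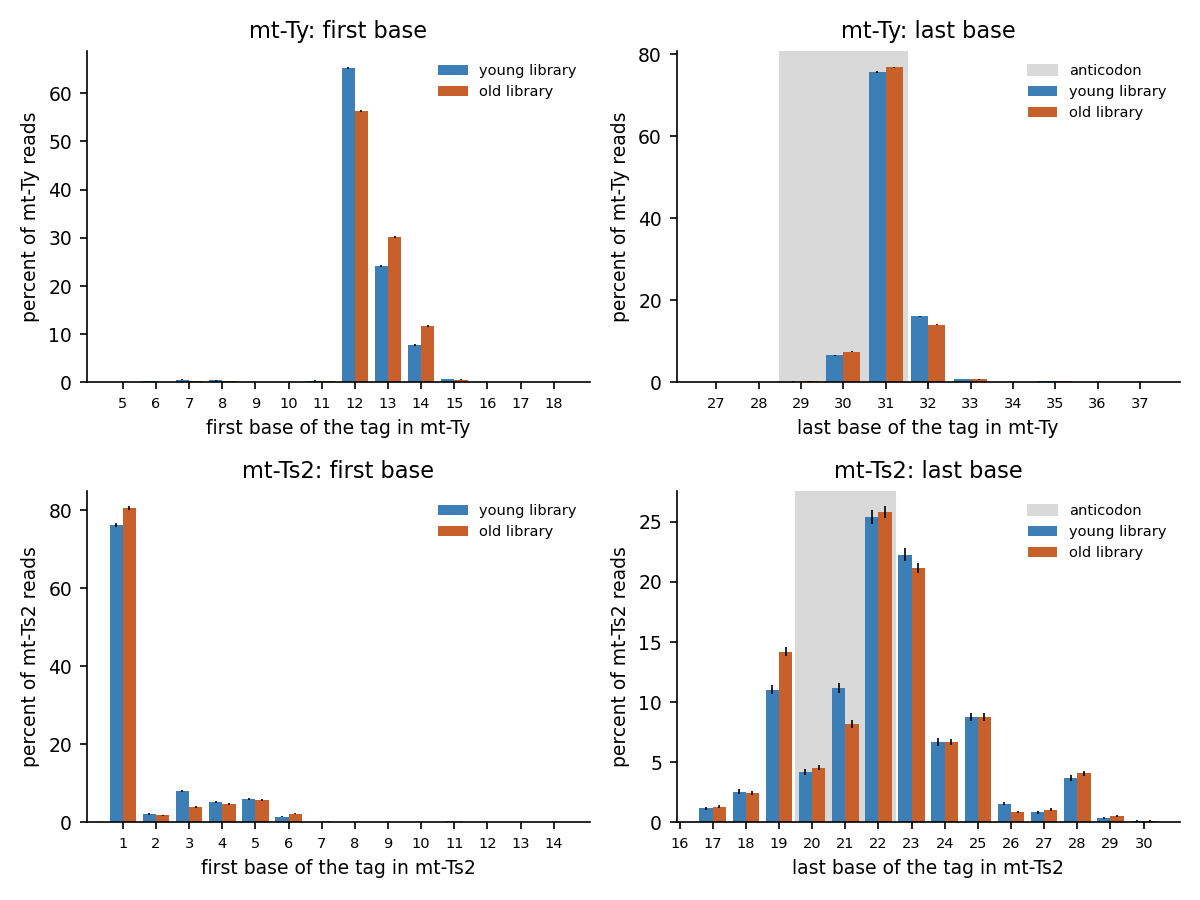
Percent of the reads of each gene (vertical axes) by the first base (left) and last base (right) of the tag, for mt-Ty (top) and mt-Ts2 (bottom); bars are the young (blue) and old (orange) libraries, whiskers are 95% Wilson intervals and the grey band is the anticodon. mt-Ty starts move from base 12 toward bases 13 and 14 in the old library while base 31 ends about the same share, and mt-Ts2 has a main start at base 1 with ends spread from base 19 to base 28.

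mt-Ts2 fragments kept the 5′ end of the tRNA. Base 1 was the start of 76.2% of young reads (75.7 to 76.8%) and 80.6% of old reads (80.2 to 81.0%), a difference of 4.37 points (3.68 to 5.06). The remaining reads started mostly at bases 2 to 6, with 5317 young and 6058 old reads. Among these starts base 3 had 1881 young and 1321 old reads (log2 ratio -1.07, -1.17 to -0.97), that is 8.03% and 4.01% of mt-Ts2 reads. Base 6 went the other way, with 333 and 731 reads and a log2 ratio of 0.58 (0.39 to 0.77). Bases 4 and 5 had log2 ratios of -0.20 and -0.14. A shift toward later starts, as seen in mt-Ty from base 12 to base 14, was thus not the pattern of mt-Ts2, where the share of base 1 was higher in the old library.

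The 3′ ends of mt-Ts2 were spread over the anticodon loop, bases 18 to 24, which held 83.2% of young and 83.0% of old ends. The third anticodon base, base 22, ended 25.4% of young reads (24.8 to 25.96%) and 25.8% of old reads (25.3 to 26.3%), and the next base ended 22.2% and 21.2%. Base 19, just before the anticodon, ended 11.1% and 14.2%, a difference of 3.12 points (2.57 to 3.67). Base 21, inside the anticodon, ended 11.2% and 8.17%, a difference of -3.01 points (-3.51 to -2.51). Base 25, outside the loop, ended 8.76% and 8.77%. Of these ends, the libraries thus differed most at bases 19 and 21 and hardly at bases 22 and 25. At base 23 the difference was -1.08 points (-1.77 to -0.39). Base 26 ended fewer reads, 1.56% and 0.85%, with a log2 ratio of -0.94 (-1.17 to -0.71).

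A further end lay at base 28, with 3.67% of young and 4.07% of old mt-Ts2 reads. A tag from base 1 to base 28 is longer than the longest tag in the files, so that this end could be seen only with starts at base 3 or later. Of the reads that started at base 5, 13.6% of young (11.9 to 15.5%) and 23.6% of old (21.7 to 25.6%) ended at base 28. Of those that started at base 4, the shares were 15.9% and 23.2%, and of those that started at base 3 they were 15.3% and 12.1%. The tag 3-28 has the longest length in the files, 26 nucleotides, at which mt-Ts2 reads were fewer in the old library. The part of tag length in this difference was not tested. How many mt-Ts2 fragments from base 1 ended at base 28 was not measured.

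The main mt-Ts2 tag, 1-22, had 4625 young and 7265 old reads (log2 ratio 0.09, 0.04 to 0.15). The tag 1-23 had 4338 and 6115 reads (log2 ratio -0.06), and 1-25 had 1684 and 2372 reads (log2 ratio -0.06). Tag 1-19 had 2373 and 4448 reads, with a log2 ratio of 0.35 (0.28 to 0.42), whereas 1-21 had 1869 and 2087 reads, with a log2 ratio of -0.40 (-0.49 to -0.31). Among the later starts, 3-22 had 448 and 300 reads (log2 ratio -1.14), 4-22 had 372 and 407 reads (-0.43) and 5-22 had 328 and 337 reads (-0.52). The highest ratio among mt-Ts2 tags with at least 100 reads was that of 6-27, with 40 young and 118 old reads (log2 interval 0.47 to 1.56).

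The lengths of the fragments follow from these ends. mt-Ty reads of 18 to 21 nucleotides were 96.6% of the gene's reads in the young library and 97.3% in the old library, with the mode at 20 nucleotides (54.9% and 48.6%). Reads of 19 nucleotides were 22.9% and 28.7%, and those of 18 nucleotides 8.64% and 12.3%. mt-Ts2 reads had 3 peaks, at 19 nucleotides (14.3% and 16.1%), at 22 and 23 nucleotides (21.4% and 23.5%, then 19.96% and 20.4%), and a small one at 25 nucleotides (8.17% and 8.57%).

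The longest tags were fewer in the old library in both genes. mt-Ty reads of 26 nucleotides numbered 329 in the young and 60 in the old library, a log2 ratio of -3.01 (-3.43 to -2.61), and those of mt-Ts2 628 and 360, a log2 ratio of -1.36 (-1.55 to -1.17). Over all tags of the files, reads of 26 nucleotides had a log2 ratio of -0.83 (-0.85 to -0.80) and those of 25 nucleotides -0.47. The shortest reads of the files were as low, with -0.85 at 17 and -0.46 at 18 nucleotides, whereas mt-Ty reads of these lengths had log2 ratios of 0.40 and 0.75 and mt-Ts2 reads -0.23 and -0.33. A tag of 26 nucleotides is the longest that the files hold. Of the 2 lowest ratios of each gene among tags with at least 100 reads, 3 of 4 were at that length, namely mt-Ty 6-31, mt-Ty 7-32 (97 and 20 reads, log2 ratio -2.84) and mt-Ts2 1-26 (280 and 146 reads, log2 ratio -1.50). The other, mt-Ts2 3-21, is 19 nucleotides long and had 285 and 158 reads (log2 ratio -1.41). The tag mt-Ty 7-31, of 25 nucleotides, had 369 and 383 reads and a log2 ratio of -0.50, and mt-Ty 8-31, of 24 nucleotides, had 275 and 337 reads and a log2 ratio of -0.26. The part of tag length in these ratios was not tested.

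**Figure D3:**
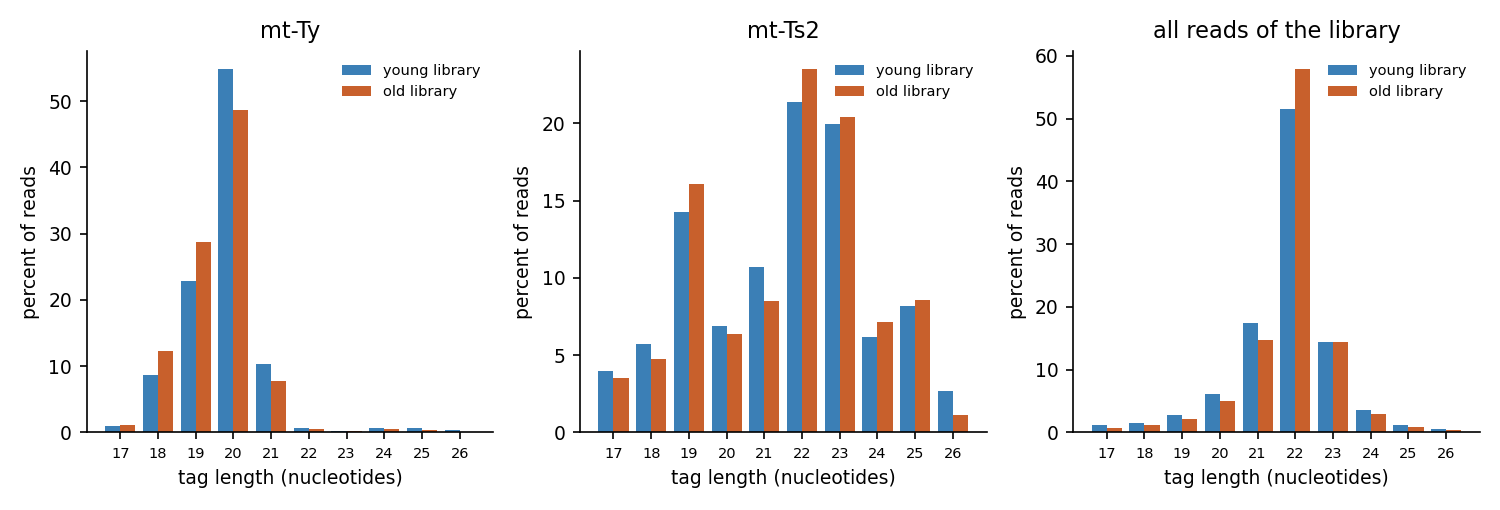
Percent of reads (vertical axes) by tag length in nucleotides for mt-Ty, mt-Ts2 and all reads of each library; blue is the young and orange the old library. mt-Ty peaks at 20 nucleotides, mt-Ts2 has peaks at 19, at 22 to 23 and at 25 nucleotides, and all reads peak at 22 nucleotides.

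Among tags with at least 20 reads over both libraries together, 112 belonged to the 2 genes and 218 member tags had fewer reads. At least 2-fold lower in the old library were 16 of the 112 (14.3%), beside 20.9% of all 13329 tags tested, and at least 2-fold higher were 5 (4.46%), beside 17.6%. With a minimum of 50 reads the counts were 11 and 5 of 87 tags, beside 20.4% and 14.5% of all tags. Without a minimum they were 85 and 45 of 330 tags, beside 36.4% and 6.23%, where a count of 0 was set to 0.5. With scaling by the other 20 mitochondrial tRNA genes they were 16 and 4 of 112, beside 21.2% and 17.4%. The median log2 ratio was 0.05 for the 51 mt-Ty tags and -0.13 for the 61 mt-Ts2 tags, beside -0.11 for all tags. At each minimum of 20 or 50 reads, smaller shares of the tags of mt-Ty and mt-Ts2 than of all tags passed 2-fold in either direction. Tags of the other 20 mitochondrial tRNA genes with at least 20 reads were also below all tags, with 10.9% lower and 15.9% higher of 220. With a minimum of 50 reads, 12.8% of their 86 tags were lower, below all tags, but 18.6% were higher, above the 14.5% of all tags. The 112 tags of mt-Ty and mt-Ts2 were deeper than all tags with at least 20 reads. Their median was 148 reads over both libraries together, beside 45 for all such tags. The part of depth in the shares past 2-fold was not tested.

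**Figure D4:**
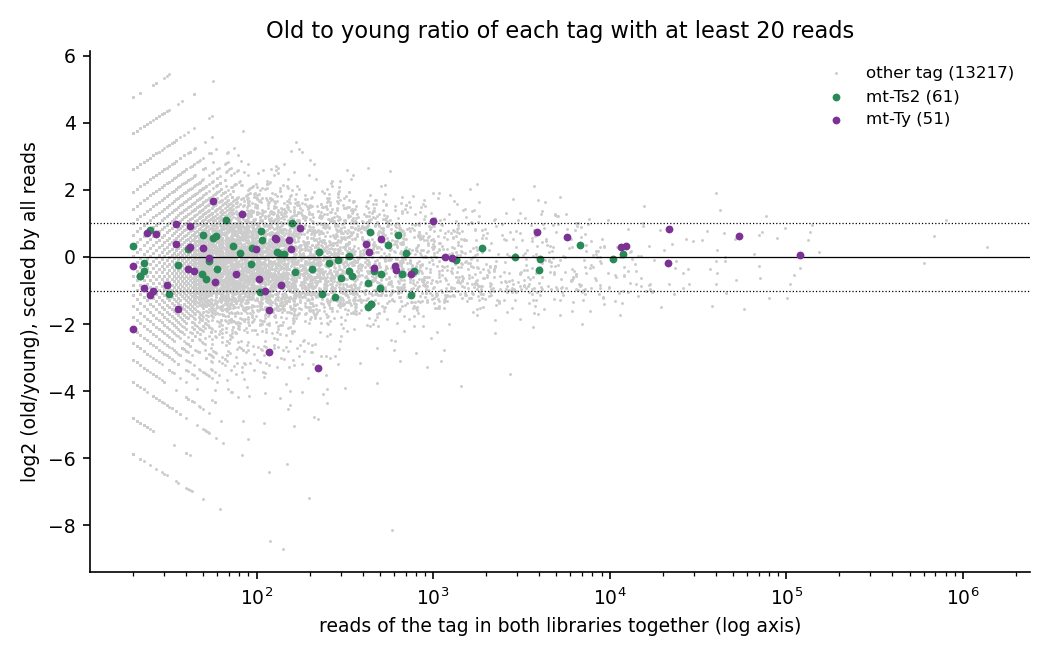
Log2 ratio of old to young (vertical axis, scaled by all reads, with a count of 0 set to 0.5) against the reads of each tag in both libraries together (logarithmic axis), for the 13329 tags with at least 20 reads; grey points are other tags, green mt-Ts2 and purple mt-Ty, and dotted lines mark 2-fold. The tags with most reads in both genes lie between the dotted lines, and the lowest purple point is mt-Ty 6-31.

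Many reads that reached base 31 of mt-Ty did not stop there or go on along the gene, but carried C, CC or CCA, the bases that make up the 3′ end of a mature tRNA. These tags have no perfect match anywhere in the genome and lie outside the 330 tags above. They were looked for after the perfect matches had been seen. The added bases are in capitals.
mt-Ty 12-31 and CCA: tgagtaagcattagactgtaCCA
mt-Ty 13-31 and C: gagtaagcattagactgtaC
mt-Ty 13-31 and CC: gagtaagcattagactgtaCC
mt-Ty 13-31 and CCA: gagtaagcattagactgtaCCA
mt-Ty 14-31 and CCA: agtaagcattagactgtaCCA
CCA followed base 31 in 2013 young and 7703 old reads, or 445.0 and 1157 RPM. The old to young ratio was 2.60-fold (2.47 to 2.73), a log2 ratio of 1.38 (1.31 to 1.45), where the untailed reads that end at base 31 had a log2 ratio of 0.27. CC followed base 31 in 1589 and 4694 reads (2.01-fold, 1.90 to 2.13), and a single C in 1422 and 2953 reads (1.41-fold, log2 interval 0.40 to 0.59). The ratio was thus higher with each added base.

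As a share of the reads that ended at base 31 with or without C, CC or CCA, CCA made up 2.62% of young reads (2.51 to 2.73%) and 5.39% of old reads (5.28 to 5.51%), a difference of 2.77 points (2.61 to 2.94). All 3 additions together made up 6.54% and 10.7%. The shares depended on the first base of the tag. With base 12 first, CCA made up 1.28% of young and 2.43% of old reads. With base 13 first it made up 4.10% and 7.69%, and with base 14 first 4.93% and 8.29%. Tags with base 14 first carried C, CC or CCA in 8.59% of young and 12.3% of old reads, those with base 12 first in 2.41% and 3.72%. Tags with base 13 first carried C, CC or CCA in 12.8% of young reads (12.3 to 13.2%) and 18.998% of old reads (18.6 to 19.4%). Fragments that start at base 13 or 14 thus had larger shares of added bases than those that start at base 12 in both libraries, and the share with CCA was higher in the old library for each of the 3 starts.

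**Figure D5:**
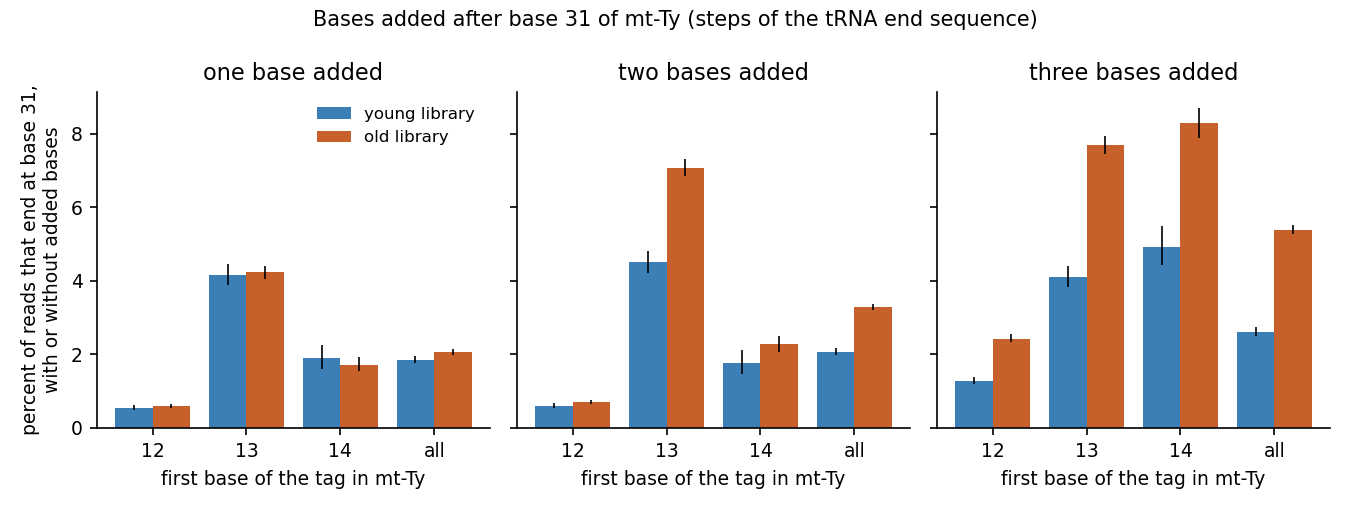
Percent of the mt-Ty reads that end at base 31, with or without added bases, that carry C (left), CC (middle) or CCA (right), by the first base of the tag; blue is the young and orange the old library, and whiskers are 95% Wilson intervals. CCA is higher in the old library for tags that start at base 12, 13 or 14, and a single C has about the same share in both libraries.

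The additions were nearly always these bases. Among reads with 3 bases after base 31, the first of which differed from the gene, 96.5% of young (2013 of 2087) and 95.6% of old reads (7703 of 8060) carried CCA. Of those with 2 bases, 91.1% and 93.2% carried CC, and of those with 1 base, 94.7% and 94.8% carried C.

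Tags of mt-Ts2 did not show this. After the third anticodon base, base 22, CCA was found in 0 reads beside 5947 young and 8510 old reads that end there, which allows up to 0.0504% and 0.0353%. Over all inner bases of mt-Ts2, CCA followed in 2 young and 9 old reads. After the last base of the gene, where TRNT1 adds CCA, mt-Ts2 had 17 young and 16 old reads with CCA, while mt-Ty had 0 and 1. In the other 20 mitochondrial tRNA genes, CCA after an inner base was found in 107 young and 199 old reads, or 1.04% and 1.30% of their perfect reads. For mt-Ty the same count over all inner bases was 2088 and 7887 reads, or 2.20% and 4.75%. In these counts over inner bases, the first base of CCA was allowed to equal the next base of the gene. They can thus hold reads in which part of CCA is the gene's own sequence. How many reads of the other genes do so was not measured. Inner CCA counted in this way was not particular to mt-Ty as a share of reads. It was higher in both libraries for mt-Tf, with 22 and 62 reads (5.53% and 6.65%), and for mt-Tm, with 21 and 19 reads (6.73% and 5.85%). The place differed, since most of these mt-Tf reads, 19 and 57, had CCA after base 60 of its 68 bases. In mt-Tm the leading place, base 28, had 6 and 10 reads. In mt-Ty the third anticodon base, base 31, had 2013 and 7703.

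Reads with a single substitution against the gene and no perfect match in the genome numbered 8460 young and 17855 old for mt-Ty, 8.90% and 10.8% of the perfect reads. They include the reads with a single C after base 31. For mt-Ts2 they numbered 2281 and 3640, or 9.74% and 11.04%, and for the other 20 genes together 49.4% and 42.6% of the perfect reads. Base 9 of mt-Ty, a G, is a position at which many mitochondrial tRNAs carry a methyl group on the base, placed there by the TRMT10C complex. Among the few mt-Ty reads that spanned base 9 away from their ends, 32.02% of 1755 young reads (29.9 to 34.2%) and 33.0% of 1675 old reads (30.8 to 35.3%) had another base there and no other difference from the gene. The change G9T was the most frequent, in 22.7% and 22.9%, followed by G9C in 5.19% and 5.67% and G9A in 4.10% and 4.42%. Positions are counted from the first base of the gene, with the gene's base first. The main mt-Ty tags start after base 9 and do not carry it. Among internal substitutions of mt-Ty, T16G had the most reads in both libraries, 442 and 1944, which is 0.44% and 1.09% of the reads over that base. G13A went the other way, with 308 and 55 reads, or 0.45% and 0.05%. A32C was found in 106 and 159 reads, 6.78% and 6.42% of those that ran past base 32. Base 33 is an A, so A32C in a read that ends there equals CA added after base 31. Such reads numbered 101 and 153, and a substitution and an addition cannot be told apart in them. In mt-Ts2, C18T had the most reads, 165 and 249, or 0.68% and 0.72%.

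Beyond their number, mt-Ty and mt-Ts2 reads differed from those of the other mitochondrial tRNA genes in the share that ended in the anticodon loop. At the third anticodon base only mt-Ty lay outside the range of the others. Over both libraries together 76.3% of mt-Ty reads ended at the third anticodon base, the highest of the 21 genes in which the anticodon was found, and 25.6% of mt-Ts2 reads did, rank 3. The other 19 genes ran from 0 to 32.8% with a median of 6.78%. Ends in the anticodon loop made up 99.3% of mt-Ty and 83.1% of mt-Ts2 reads, ranks 1 and 2, where the others ran from 0.041 to 63.1% with a median of 14.7%. The longest tag, 26 nucleotides, can reach from base 1 into the loop of mt-Ts2, bases 18 to 24. Of the other 19 genes, only mt-Tk has a loop that begins within that reach, at base 25. The part of this limit in the rank of mt-Ts2 was not tested. By the share of reads at the main start, mt-Tw came nearest to mt-Ty (60.1% at base 1, beside 59.5% of mt-Ty reads at base 12) and mt-Tp nearest to mt-Ts2 (77.8% at base 3, beside 78.8% at base 1). mt-Tc, chosen after its values were seen, has the main ends most like those of mt-Ty, with 16.98% of its 346 young and 355 old reads at start 13 and 25.0% at end 31. Its log2 ratio was -0.52 (-0.74 to -0.30).

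The libraries also differed in overall measures. Reads with an undetermined base were 4.57% of the young and 1.07% of the old library, and among reads that fit mt-Ty when such a base is passed over there were 4213 and 1570. Reads with a perfect genome match were 68.4% and 70.8%. Brain miRNA precursors on the marker list (miR-124, miR-9 and miR-128) held 57241 RPM in the young and 29935 RPM in the old library. Blood precursors held 484 and 270.2, muscle precursors 1024 and 997 and the liver precursor 170 and 106 RPM. Of the 16 precursors listed, 5 were not in the annotation under these names. The part of these differences in the ratios of mt-Ty and mt-Ts2 was not tested, and in whole brain fewer cells of a type and less RNA per cell cannot be told apart.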

How the data were processed

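Whole-brain small RNA libraries, 1 per age, were used as deposited: the authors trimmed 3′ adapters with SOAP from 36-nucleotide reads and deposited each tag with its read count, so the values are raw counts, not normalized. The mismatch limit against the genome (mm9) is not given in the sources used here. Tags with an undetermined base were left out. Perfect matches of all other tags to the NCBIM37 genome, both strands, were found by a program written for this work (gcc 11.4.0, Python 3.11.15, samtools 1.23.1, scipy 1.17.1). Anticodons were located from the gene sequence with a loop of 7 bases and a stem of at least 4 pairs. RPM is reads per 1000000 reads of a library. Intervals at 95% are Clopper-Pearson for ratios, Wilson for shares and Newcombe for differences. No count model was fitted, as there is a single library for each age. Named tags were, for each gene, the 5 with most reads, the top tag of each start with at least 5% of reads, and the 2 highest and 2 lowest ratios among tags with at least 100 reads; mt-Ty 7-31 and 8-31 were added later for comparison, and not every named tag is described. The genes, lists and rules were chosen with earlier results of these data known. On simulated data 181 of 181 planted fragments were placed. In counts simulated with counting error only, 96.1% of 13329 intervals held the true ratio. The simulation held no PCR copies and no spread between mice, so it does not show how the intervals do on real reads.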

Additional observations from a re-analysis of the deposited data

How the results depend on the processing

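No paired analysis was possible because each age has 1 library, and no library could be left out. Of 35 alternative values chosen for the ratios, shares and counts, 14 moved by less than counting error or, for counts, by less than 1.5 times. The log2 ratio of mt-Ty stayed above 0: it was 0.20 scaled by reads with a perfect genome match, 0.23 scaled by the other 20 mitochondrial tRNA genes, 0.18 scaled by miRNA precursor reads, 0.27 with 1 substitution and 0.20 with undetermined bases added. That of mt-Ts2 was -0.11 scaled by genome matches, -0.13 scaled by miRNA precursor reads and -0.12 with undetermined bases added. It was 0.10, the opposite sign, over the 165 reads of tags without a nuclear match, a much smaller set; for mt-Ty no tag lacked a nuclear match and no value could be had. The share of mt-Ty reads at base 12 was 64.1% young and 55.3% old with 1 substitution added, and 66.4% and 57.1% for 18 to 24 nucleotides. The share of mt-Ts2 reads at base 1 was 78.3% and 82.6% for 18 to 24 nucleotides. With each tag counted once, which drops the read numbers, the shares were 7.35% and 6.71% for mt-Ty and 8.13% and 7.25% for mt-Ts2. With no read minimum 85 tags were at least 2-fold lower and 45 at least 2-fold higher in the old library. The log2 ratio of mt-Ty reads with CCA, whose alternatives were chosen after seeing the data, was 1.33, 1.36 and 1.31 under the 3 other scalings, and 0.99, 1.64 and 1.64 for tags starting at base 12, 13 and 14. Without a second library per age the spread between mice is unknown.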
